A study of Homo sapiens with 12 samples.

Results

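The bile acid genes are 10 protein-coding genes that make bile acids, conjugate them, carry them across liver cell membranes and restrain their synthesis, and all 10 were found by symbol among the 61806 gene IDs of the count table. They were chosen by name, as a set of textbook liver functions, at a time when earlier results of these data were known. Transcript levels were measured by poly(A)-selected RNA-seq in 12 libraries, in 4 groups of 3. Libraries labelled Hep3B carried a Tet-on shRNA aimed at CD146, an adhesion protein that the gene MCAM encodes, or an inducible control shRNA. HepG2 libraries carried CD146 from an introduced vector or the pLVX vector without it. Hep3B and HepG2 are established human liver cancer lines, kept by the labels' account in different media, so that line, medium, vector and method of perturbation vary together. The duration of induction and whether each group was 1 clone or a pool are not given in the sources used here. The labels do not state whether a group's 3 libraries were grown as independent cultures, and the p-values rest on differences among libraries that may be purely technical. The numbers 1 to 3 in the shRNA titles could mark replicates or different hairpins, which the labels do not settle. They were treated as replicates, so the SDs and p-values of the shRNA groups may include differences between hairpins.

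Liver cells turn cholesterol into bile acids by a classical route that CYP7A1 opens and by an alternative route that CYP27A1 can open. Bile acids are then joined to glycine or taurine, secreted into bile across the canalicular membrane, and recovered from the blood across the basolateral membrane. Bile acids bind the nuclear receptor FXR (NR1H4), which raises NR0B2 (SHP), and SHP in turn restrains CYP7A1 and CYP8B1.

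The libraries held 12772991 to 18129816 counts and 24377 to 28844 genes with a count. MCAM had 22.0, 24.2 and 26.9 CPM with the CD146 shRNA, against 114, 112 and 119 CPM with the control shRNA, and 1946, 1954 and 1897 CPM with CD146 overexpression, against 22.9, 23.5 and 23.7 CPM with pLVX. CPM are counts per 1000000 counted reads, scaled within each line by TMM, which corrects for differences in library make-up. The 10 hepatocyte markers examined, albumin (ALB) among them, summed to 52974 to 59098 CPM on unscaled totals in the 6 HepG2 libraries. In libraries labelled Hep3B the same sum was 0.993, 1.69 and 63.0 CPM with the CD146 shRNA and 0.42, 1.02 and 0.66 CPM with the control shRNA, so the hepatocyte markers went against the label of a liver cell line. CD146 shRNA replicate 3 stood apart, with 298 ALB counts against 0 to 5 in the other libraries labelled Hep3B and a hepatocyte marker sum of 0.113% of the HepG2 mean. At that share of their HepG2 levels the bile acid genes would have between 0.000722 and 2.08 counts in this library, the largest figure being that of CYP27A1, which had 8 counts there.

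The promoter windows of SLC51A and BAAT, which changed with CD146 overexpression, and of SLC51B, which encodes the partner subunit of SLC51A, are shown because their genes carry the results below. Each runs from 250 bases before to 50 bases after an annotated start, from RefSeq on GRCh38.p14, and capitals mark the hexamer AGGTCA, the core that many nuclear receptors bind, read on either strand. The search covered 7 windows of 6 bile acid genes: BAAT with a pair of starts, CYP27A1, SLC10A1, ABCB11, SLC51A and SLC51B. CYP7A1 was left out of the search, so the motifs below say nothing of its promoter. No window was available for CYP8B1, ABCB4 and NR0B2.
BAAT, chr9:101383515-101383814, minus strand: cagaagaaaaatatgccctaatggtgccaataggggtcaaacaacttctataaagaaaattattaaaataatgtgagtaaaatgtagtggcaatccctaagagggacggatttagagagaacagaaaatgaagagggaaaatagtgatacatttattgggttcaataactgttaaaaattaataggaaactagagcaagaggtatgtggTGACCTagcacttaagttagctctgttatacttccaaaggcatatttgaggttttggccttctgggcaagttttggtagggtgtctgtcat
SLC51A, chr3:196216284-196216583, plus strand: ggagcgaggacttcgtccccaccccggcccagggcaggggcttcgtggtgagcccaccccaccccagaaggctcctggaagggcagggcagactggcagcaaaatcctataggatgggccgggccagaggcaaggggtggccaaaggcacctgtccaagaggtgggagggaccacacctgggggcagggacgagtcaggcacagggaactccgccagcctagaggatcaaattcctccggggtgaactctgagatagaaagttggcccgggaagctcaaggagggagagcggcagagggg
SLC51B, chr15:65045137-65045436, plus strand: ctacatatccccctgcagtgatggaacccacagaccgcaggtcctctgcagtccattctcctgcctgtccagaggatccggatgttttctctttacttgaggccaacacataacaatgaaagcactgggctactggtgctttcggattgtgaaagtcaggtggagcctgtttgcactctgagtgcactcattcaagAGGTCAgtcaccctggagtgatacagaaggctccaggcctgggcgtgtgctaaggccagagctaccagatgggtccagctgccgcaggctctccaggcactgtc
AGGTCA occurred in the BAAT window shown on the opposite strand, beginning 41 bases before the start, but not in the window of the other BAAT start (chr9:101383824-101384123). It was also in the SLC51B window, 54 bases before the start, in the SLC10A1 window, and in 13.8% of all 35116 windows. The other motifs searched on both strands were CAAGGTCA for NR5A2, which contains the hexamer (1.28% of windows), GTTAAT for HNF1 (6.88%), CAAAGTCCA for HNF4 (0.384%) and, for FXR, the inverted repeat of AGGTCA with 1 base between its copies (0 windows). None of these letters was in the 7 windows searched, which left out CYP7A1, and no binding was measured here. The exact FXR repeat was in 0 of all 35116 windows. Its absence here therefore cannot tell whether a less exact FXR site is present.

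Levels between genes and between lines are given as the deposited FPKM, which are scaled by gene length and library size. In HepG2 the order was led by CYP27A1, with a mean of 43.1 ± 0.691 FPKM with CD146 overexpression and 44.1 ± 0.614 FPKM with pLVX (SD, n = 3 each). NR0B2 followed with 20 ± 1.39 and 20.9 ± 0.963 FPKM, and SLC51B with 5.42 ± 0.626 and 4.96 ± 0.779 FPKM, each with CD146 overexpression and then with pLVX. SLC51A and ABCB4 took the next places, with SLC51A above ABCB4 under overexpression (3.78 ± 0.0666 against 3.48 ± 0.161 FPKM) and below it with pLVX (2.74 ± 0.225 against 3.69 ± 0.287 FPKM). The ranges of these pairs did not overlap in either group. CYP7A1 and BAAT overlapped with pLVX, at 1.57 ± 0.27 and 1.42 ± 0.191 FPKM, but stood apart under overexpression, at 2.29 ± 0.235 and 0.537 ± 0.0503 FPKM. BAAT there overlapped CYP8B1, which had 0.45 ± 0.0458 FPKM. SLC10A1 (0.273 ± 0.0737 and 0.23 ± 0.02 FPKM) and ABCB11 (at most 0.01 FPKM in any HepG2 library) were lowest in both groups.

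In libraries labelled Hep3B only the basolateral exporter subunits reached a mean of 1 CPM, 2 of the 10 genes against 8 in each HepG2 group. SLC51B had 2.26 ± 0.396 FPKM with the CD146 shRNA and 2.31 ± 0.312 FPKM with the control shRNA, and SLC51A had 0.65 ± 0.0866 and 0.53 ± 0.106 FPKM. The other 8 genes had between 0 and 12 counts in a library, and from CYP27A1 downward most neighbours in the order overlapped. NR0B2 had 0 counts in all 6 libraries labelled Hep3B, against 302 to 424 in HepG2.

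**Figure D1:**
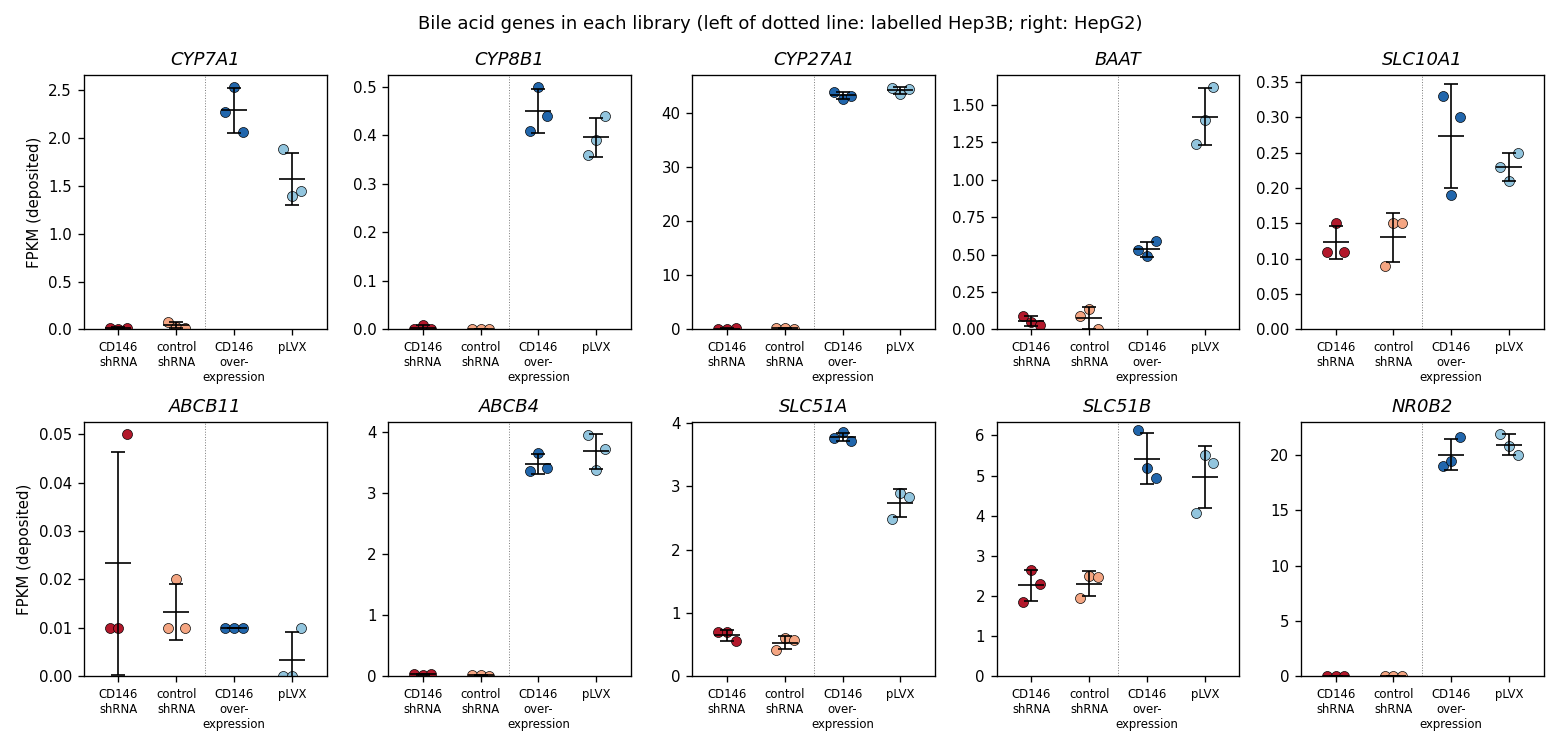
Deposited FPKM of each bile acid gene (vertical axes from 0, scaled per gene) in the 12 libraries; points are libraries and bars the mean and SD of 3. BAAT, CYP7A1 and SLC51A separate the HepG2 groups, while NR0B2, CYP8B1, CYP27A1 and ABCB4 lie near 0 in libraries labelled Hep3B.

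The next comparison asked which bile acid genes changed when CD146 was raised in HepG2. BAAT fell, SLC51A rose and CYP7A1 rose, so 3 of the 8 genes with enough counts to be tested passed an adjusted p of 0.05, against 19.8% of all 15300 genes tested (9.55% upward and 10.3% downward). The median log2 fold change of the 8 was -0.03, beside 0.00 over all genes tested. Groups did not overlap on TMM-scaled CPM for BAAT, SLC51A, CYP7A1 and CYP27A1, 4 of 8. Among all genes the share was 33.6% (16.5% with overexpression higher and 17.1% with it lower). On the deposited FPKM the CYP27A1 groups did overlap. Fold changes are overexpression over pLVX on the log2 scale, from edgeR's quasi-likelihood test with Benjamini-Hochberg adjustment over all genes. For single genes the exact 2-sided permutation test on mean CPM cannot go below p = 0.1 with 3 against 3 libraries.

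Among the synthesis enzymes, CYP7A1 (ENSG00000167910, chromosome 8 from 58490178 to 58500236, minus strand, GRCh38) encodes the cholesterol 7-alpha-hydroxylase that limits the classical route. CYP7A1 had 6.37, 7.15 and 5.78 CPM with CD146 overexpression, against 5.58, 4.10 and 4.24 CPM with pLVX. Every overexpression library lay above every pLVX library, with the lowest and highest neighbours close together. Its log2 fold change was 0.48 (SE 0.15, 95% interval 0.18 to 0.78, adjusted p = 0.0168, exact permutation p = 0.1). This call rested on 58 to 100 counts per library and was not kept by DESeq2 (adjusted p = 0.103) or without pLVX replicate 2 (0.114), pLVX replicate 3 (0.0751) or CD146 overexpression replicate 2 (0.0863).

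CYP27A1 (ENSG00000135929, chromosome 2 from 218781749 to 218815293, plus strand), the mitochondrial sterol 27-hydroxylase, had 128, 124 and 125 CPM with CD146 overexpression, against 137, 133 and 136 CPM with pLVX. The groups did not overlap on this scale, but the log2 fold change of -0.10 (SE 0.04, interval -0.18 to -0.03) did not pass (edgeR adjusted p = 0.0512). On the deposited FPKM they overlapped, at 42.47 to 43.85 with overexpression against 43.41 to 44.56 with pLVX. CYP8B1 (ENSG00000180432, chromosome 3 from 42856005 to 42876165, minus strand), the 12-alpha-hydroxylase that leads to cholic acid, had 1.67, 2.06 and 1.79 CPM with overexpression and 1.54, 1.65 and 1.9 CPM with pLVX. These ranges overlapped (log2 fold change 0.11, interval -0.40 to 0.63, edgeR adjusted p = 0.824). CYP8B1 overlaps ACKR2 on the other strand, whose level was of the same order, at 2.22 ± 0.228 CPM with overexpression and 2.79 ± 0.0848 CPM with pLVX (unscaled totals), so the CYP8B1 counts are uncertain. Within each library the ratio of CYP7A1 to CYP27A1 FPKM was 0.0518, 0.0596 and 0.0478 with CD146 overexpression, against 0.0422, 0.032 and 0.0325 with pLVX, without overlap (exact 2-sided permutation p = 0.1).

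BAAT (ENSG00000136881, chromosome 9 from 101360417 to 101383519, minus strand) encodes the enzyme that joins bile acids to glycine or taurine. BAAT had 2.45, 2.29 and 2.72 CPM with CD146 overexpression, against 6.07, 6.79 and 7.89 CPM with pLVX. The groups were far apart, and the overexpression mean was 35.9% of the pLVX mean (2.48 ± 0.217 and 6.91 ± 0.915 CPM). The log2 fold change was -1.47 (SE 0.17, interval -1.81 to -1.13, adjusted p = 5.14e-10, exact permutation p = 0.1). The counts were 38, 31 and 47 with overexpression and 75, 111 and 108 with pLVX. Processed pseudogenes overlap BAAT in the annotation, of which FYTTD1P1 had 0.262 ± 0.0356 and 0.233 ± 0.0528 CPM in these groups. With BAAT, the summed hepatocyte markers were lower with overexpression (52974 to 53540 CPM, against 57101 to 59098 CPM with pLVX). By edgeR 6 of the 10 fell and 4 were not called, where 10.3% of all genes tested fell and 9.55% rose. The drop in the sum lay in ALB, at 15277 to 15641 CPM with overexpression against 20885 to 21671 CPM with pLVX on unscaled totals. APOB, the other large marker, was not called and was higher on these totals, at 19980 to 20420 against 18771 to 19246 CPM. Summed cholangiocyte markers were higher, at 1212 to 1245 CPM against 891 to 991 CPM, with 4 of the 5 tested having risen. SPP1 alone made up most of these sums, at 726 to 758 CPM against 544 to 626 CPM. CFTR and AQP1 were at 0, and KRT7 had 0 to 2 counts in a library. The part of either marker list in the BAAT result was not tested. In RNA from whole cultures, fewer cells that express a gene and less of its RNA per cell cannot be told apart.

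BAAT lay beside 5 genes of at least 5 CPM whose log2(CPM + 1) followed it most closely over the 6 HepG2 libraries, namely HSD17B11, PRR11, LRPPRC, CPED1 and GLOD4 (Pearson r between 0.9969 and 0.9992, among 10090 protein-coding genes). Their own log2 fold changes were much smaller, from -0.53 for CPED1 to -0.16 for GLOD4. For SLC51A the corresponding genes were SSC4D, SH3BP2, ZNF160, CEP170B and STEAP2 (r between 0.9949 and 0.998), with log2 fold changes from 0.20 for ZNF160 to 1.16 for STEAP2. These r describe 6 libraries in which both groups of a gene stand apart.

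Of the transporters, SLC51A and SLC51B encode the alpha and beta subunits of OST, the heterodimer that carries bile acids out across the basolateral membrane. SLC51A (ENSG00000163959, chromosome 3 from 196211487 to 196243178, plus strand) had 19.3, 19.9 and 19.1 CPM with CD146 overexpression, against 13.5, 15.6 and 15.3 CPM with pLVX. No overexpression library came near the pLVX range. The log2 fold change was 0.39 (SE 0.08, interval 0.21 to 0.56, adjusted p = 0.000507, exact permutation p = 0.1). PCYT1A overlaps SLC51A on the other strand and was more abundant, at 82.0 ± 1.41 CPM with overexpression and 74.3 ± 2.86 CPM with pLVX (unscaled totals). With the CD146 and control shRNAs PCYT1A had 73.0 ± 1.42 and 82.9 ± 2.17 CPM. Its log2 fold change with overexpression was 0.07 (edgeR adjusted p = 0.29). Whether PCYT1A reads entered the SLC51A counts in either line was not tested.

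SLC51B (ENSG00000186198, chromosome 15 from 65045370 to 65053396, plus strand) had 5.54, 4.72 and 4.45 CPM with overexpression, against 3.88, 5.20 and 5.04 CPM with pLVX. The groups overlapped (log2 fold change 0.04, interval -0.28 to 0.36, edgeR adjusted p = 0.894). The ratio of SLC51A to SLC51B FPKM within a library was 0.613, 0.74 and 0.753 with overexpression, against 0.609, 0.527 and 0.532 with pLVX. One library of each group nearly met, and the exact 2-sided permutation p was 0.1. With the shRNAs the ratio was 0.378, 0.265 and 0.239 for CD146 and 0.21, 0.243 and 0.231 for the control, with overlap (exact permutation p = 0.2).

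**Figure D2:**
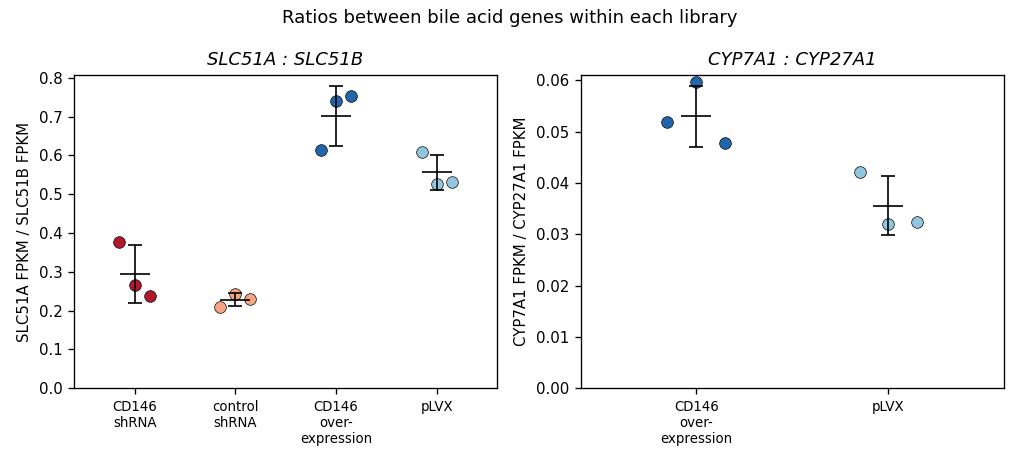
Ratios of deposited FPKM between bile acid genes within each library, SLC51A over SLC51B in all 4 groups (left) and CYP7A1 over CYP27A1 in HepG2 (right); points are libraries and bars the mean and SD of 3. Mean SLC51A to SLC51B ratios were 0.294 with the CD146 shRNA, 0.228 with the control shRNA, 0.702 with overexpression and 0.556 with pLVX.

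At the canalicular membrane, ABCB4 (ENSG00000005471, chromosome 7 from 87401697 to 87480435, minus strand), the exporter of phosphatidylcholine into bile, had 25.4, 27.7 and 25.7 CPM with CD146 overexpression, against 31.6, 26.7 and 29.6 CPM with pLVX. The groups overlapped (log2 fold change -0.15, interval -0.29 to -0.01, edgeR adjusted p = 0.125), although without pLVX replicate 2, the lowest of its group, the value was -0.22 (adjusted p = 0.0399). ABCB11 (ENSG00000073734, chromosome 2 from 168915498 to 169031324, minus strand), the bile salt export pump, had 1 count in each overexpression library, against 0, 0 and 1 with pLVX. SLC10A1 (ENSG00000100652, chromosome 14 from 69775417 to 69797289, minus strand), the NTCP transporter that takes bile acids up from blood, had 10, 5 and 10 counts with overexpression, against 6, 7 and 7 with pLVX. Neither had enough counts to be tested, and a difference was not detectable at this depth.

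NR0B2 (ENSG00000131910, chromosome 1 from 26911489 to 26913966, minus strand) encodes SHP, the repressor induced by FXR. NR0B2 had 21.6, 22.3 and 24.5 CPM with CD146 overexpression, against 26.4, 24.8 and 23.9 CPM with pLVX. One overexpression library lay within the pLVX range (log2 fold change -0.13, interval -0.28 to 0.02, edgeR adjusted p = 0.235). NR0B2 overlaps NUDC on the other strand, which was expressed in every group (149 to 184 CPM on average), including the libraries labelled Hep3B in which NR0B2 had 0 counts.

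**Figure D3:**
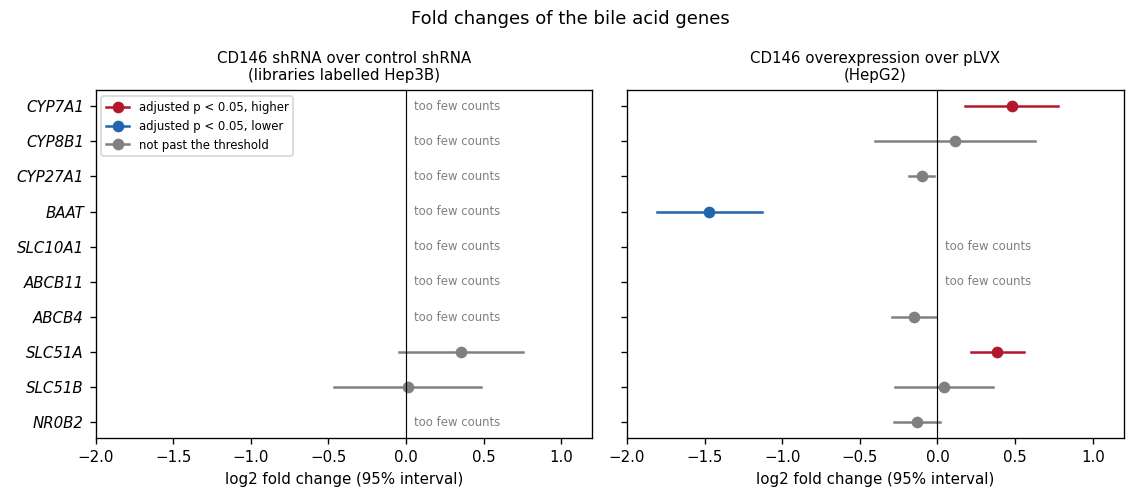
Log2 fold changes (horizontal axes) with 95% intervals of the 10 bile acid genes with the CD146 shRNA over control shRNA (left) and CD146 overexpression over pLVX (right), from edgeR. BAAT lies at -1.47, SLC51A at 0.39 and CYP7A1 at 0.48 on the right, and only SLC51A and SLC51B could be tested on the left.

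When CD146 was lowered in libraries labelled Hep3B, 8 of the 10 bile acid genes had too few counts to be tested and neither of the other 2 passed the test. That was 0 of 2, against 55.3% of all 16968 genes tested (26.8% upward and 28.5% downward), and 0 also at an unadjusted p under 0.05, with DESeq2 and with limma on FPKM. SLC51A had 3.71, 3.74 and 2.96 CPM with the CD146 shRNA, against 2.12, 3.17 and 2.97 CPM with the control shRNA. One CD146 shRNA library fell short of the control range's upper end (log2 fold change 0.35, interval -0.05 to 0.75, edgeR adjusted p = 0.13), and the value was 0.44 without CD146 shRNA replicate 3 (adjusted p = 0.0829). SLC51B had 1.71, 2.49 and 2.17 CPM with the CD146 shRNA, against 1.77, 2.31 and 2.26 CPM with the control shRNA, nearly the same range (log2 fold change 0.01, interval -0.46 to 0.48, edgeR adjusted p = 0.978). Depth allowed SLC51B a change of either sign within that interval.

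The counts of the other 8 are given as they stand. BAAT had 8, 4 and 2 counts with the CD146 shRNA and 7, 9 and 0 with the control shRNA. CYP27A1 had 10, 7 and 8 counts with the CD146 shRNA and 12, 8 and 6 with the control shRNA. CYP7A1 had 1, 0 and 1 counts with the CD146 shRNA, against 4, 1 and 1 with the control shRNA. ABCB4 had 4, 3 and 4 counts with the CD146 shRNA, against 2, 2 and 1 with the control shRNA, the 1 gene of all 10 whose groups did not overlap. Among all genes tested, groups did not overlap for 59.8% (29.1% with the CD146 shRNA higher and 30.7% with it lower). SLC10A1 had 4, 5 and 3 counts with the CD146 shRNA, against 3, 4 and 5 with the control shRNA. ABCB11 had 2, 1 and 5 counts with the CD146 shRNA, against 1, 2 and 1 with the control shRNA. CYP8B1 had 1 count in all, in CD146 shRNA replicate 2. Values of about 3 counts, worth 0.165 to 0.218 CPM in libraries labelled Hep3B, lie near the limit of detection, which covers counting error only. CYP27A1, at 6 to 12 counts, lay above that level but below the filter for testing.

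The effect of more CD146 transcript was then set against line, as the difference between overexpression minus pLVX in HepG2 and control minus CD146 shRNA in libraries labelled Hep3B, in a fit of all 12 libraries. These contrasts use the same libraries as the comparisons above. Of the 8 genes tested, SLC51A and BAAT passed, against 36.4% of all 18870 genes (17.2% upward and 19.2% downward). For SLC51A the difference was 0.75 on the log2 scale (SE 0.20, interval 0.35 to 1.15, edgeR adjusted p = 0.00191). For BAAT it was -1.69 (SE 0.65, interval -2.99 to -0.39, edgeR adjusted p = 0.035), but it rested on 0 to 9 counts in libraries labelled Hep3B. The BAAT call was lost on leaving out control shRNA replicate 1 (-1.49, adjusted p = 0.14) or replicate 2 (-1.01, adjusted p = 0.387), and without CD146 shRNA replicate 2 (-1.56, adjusted p = 0.0665) or replicate 3 (-1.44, adjusted p = 0.0829). It was also lost without pLVX replicate 3 (-1.59, adjusted p = 0.0578).

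Between the control groups of the lines, pLVX over control shRNA, the 8 tested genes were all higher in HepG2, while 83.2% of all genes tested were called (39.7% higher and 43.4% lower in HepG2). Of these, 6 passed the filter on low counts only through HepG2, where they are high, so their number is no support. SLC51A and SLC51B were measured in both lines, with log2 differences of 2.70 (SE 0.13, edgeR adjusted p = 2.82e-26) and 1.44 (SE 0.19, edgeR adjusted p = 1.66e-09). NR0B2 had 1059 counts with pLVX and 0 with the control shRNA, and CYP8B1 had 72 and 0. No fold can be measured against 0 counts. Had the control shRNA libraries held an assumed floor of 3 counts over all 3, the levels with pLVX would be 382-fold and 26.0-fold higher. The lower 95% limits from counting error alone were 310-fold and 20.6-fold. ACKR2, which overlaps CYP8B1 and makes its counts uncertain, had 2.79 ± 0.0848 CPM with pLVX and 0 CPM with the control shRNA (unscaled totals). ABCB4 had 1232 counts with pLVX and 5 with the control shRNA, and CYP27A1 had 5723 and 26. SLC10A1, with 20 and 12 counts, differed 1.8-fold with a counting interval of 0.839 to 4.05, and ABCB11 had 1 and 4.

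Other genes of bile acid metabolism, 49 chosen by name, were read beside these. In HepG2 with CD146 overexpression, 36 could be tested, of which 6 rose and 7 fell (median log2 fold change -0.01), where 9.55% of all genes tested rose and 10.3% fell (median 0.00). Of 9 tested synthesis enzymes 5 fell and 0 rose. ACOX2, the peroxisomal oxidase that begins side chain shortening, fell to 33.7 ± 1.96 CPM, against 42.6 ± 1.62 CPM with pLVX (log2 fold change -0.33, edgeR adjusted p = 3.18e-05). SLC27A5, the ligase that activates bile acids for BAAT, had 9.20 ± 0.706 and 12.1 ± 2.14 CPM (-0.38, adjusted p = 0.011). HSD3B7, an early enzyme of both routes, fell by 0.27 on the log2 scale, and SCP2, a peroxisomal thiolase and sterol carrier, by 0.15. HSD17B4, which was named after its value was seen, fell by 0.11.

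Of 9 tested transporters 2 rose and 0 fell with CD146 overexpression, a share close to the 19.8% of all genes called in this comparison. ABCC3, a basolateral exporter, rose to 183 ± 6.34 CPM, against 136 ± 6.92 CPM with pLVX (log2 fold change 0.43, edgeR adjusted p = 4.99e-13). ATP8B1, the flippase that keeps the canalicular membrane stable, rose to 19.7 ± 1.47 CPM, against 11.4 ± 0.318 CPM (0.80, adjusted p = 4.6e-10). SULT2A1, which sulfates bile acids, fell by 0.15 (adjusted p = 0.00154), while UGT2B4, a glucuronosyltransferase named after its value was seen, rose to 2.63 ± 0.566 CPM, against 1.15 ± 0.337 CPM. Of 16 tested regulators 3 rose and 1 fell, a share not far from that of all genes. HNF4A and CEBPA, liver transcription factors, rose by 0.12 and 0.14, and RXRA, the partner of FXR, fell by 0.22. NR1I3 (CAR), named after its value was seen, rose to 4.50 ± 0.451 CPM, against 2.86 ± 0.18 CPM with pLVX. The bile acid receptor NR1H4 had 77.6 ± 2.06 and 82.5 ± 2.29 CPM and did not pass (adjusted p = 0.158).

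In libraries labelled Hep3B with the CD146 shRNA, 28 of the 49 could be tested, of which 12 rose and 6 fell (median log2 fold change 0.09), where 26.8% of all genes tested rose and 28.5% fell (median 0.00). Among transporters 5 of 8 rose and 0 fell. SLCO2B1, an organic anion uptake transporter, rose to 5.80 ± 0.707 CPM with the CD146 shRNA, against 1.18 ± 0.152 CPM with the control shRNA (log2 fold change 2.30, edgeR adjusted p = 2.28e-12). ABCC2, the canalicular exporter MRP2, rose to 474 ± 20.4 CPM, against 382 ± 7.94 CPM. ABCC4 and TMEM30A rose by 0.21 and 0.15, and ATP8B1, named after its value was seen, by 0.32. Of 8 tested synthesis enzymes 4 rose and 2 fell, with SLC27A2 at 53.5 ± 2.59 CPM, against 35.2 ± 1.93 CPM, and SCP2 at 44.1 ± 1.56 CPM, against 67.3 ± 1.92 CPM. ACOT8 rose by 0.44 and HSD17B4 fell by 0.20. HSD3B7 and AKR1C4, named after their values were seen, rose by 0.74 and 0.88. None of the 4 genes SULT2A1, UGT2B4, UGT1A3 and CYP3A4 had enough counts.

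Of 12 tested regulators 3 rose and 4 fell with the CD146 shRNA, a share close to the 55.3% of all genes called in this comparison. PPARGC1A, a coactivator of liver nuclear receptors, rose to 51.8 ± 3.10 CPM, against 24.9 ± 2.31 CPM with the control shRNA (log2 fold change 1.05, edgeR adjusted p = 1.67e-16). FGFR4 and KLB, the receptor and co-receptor through which FGF19 restrains CYP7A1, rose by 0.78 and 1.04. The vitamin D receptor VDR fell to 46.6 ± 2.89 CPM, against 72.3 ± 4 CPM (-0.63, edgeR adjusted p = 2.62e-12). The other regulators that fell, named after their values were seen, were NR1H3 (-0.61), NR1I3 (-0.79) and CEBPA (-0.81). NR1H4 had 0.583 ± 0.173 CPM with the CD146 shRNA and 0.667 ± 0.196 CPM with the control shRNA, and was not called (adjusted p = 0.665).

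**Figure D4:**
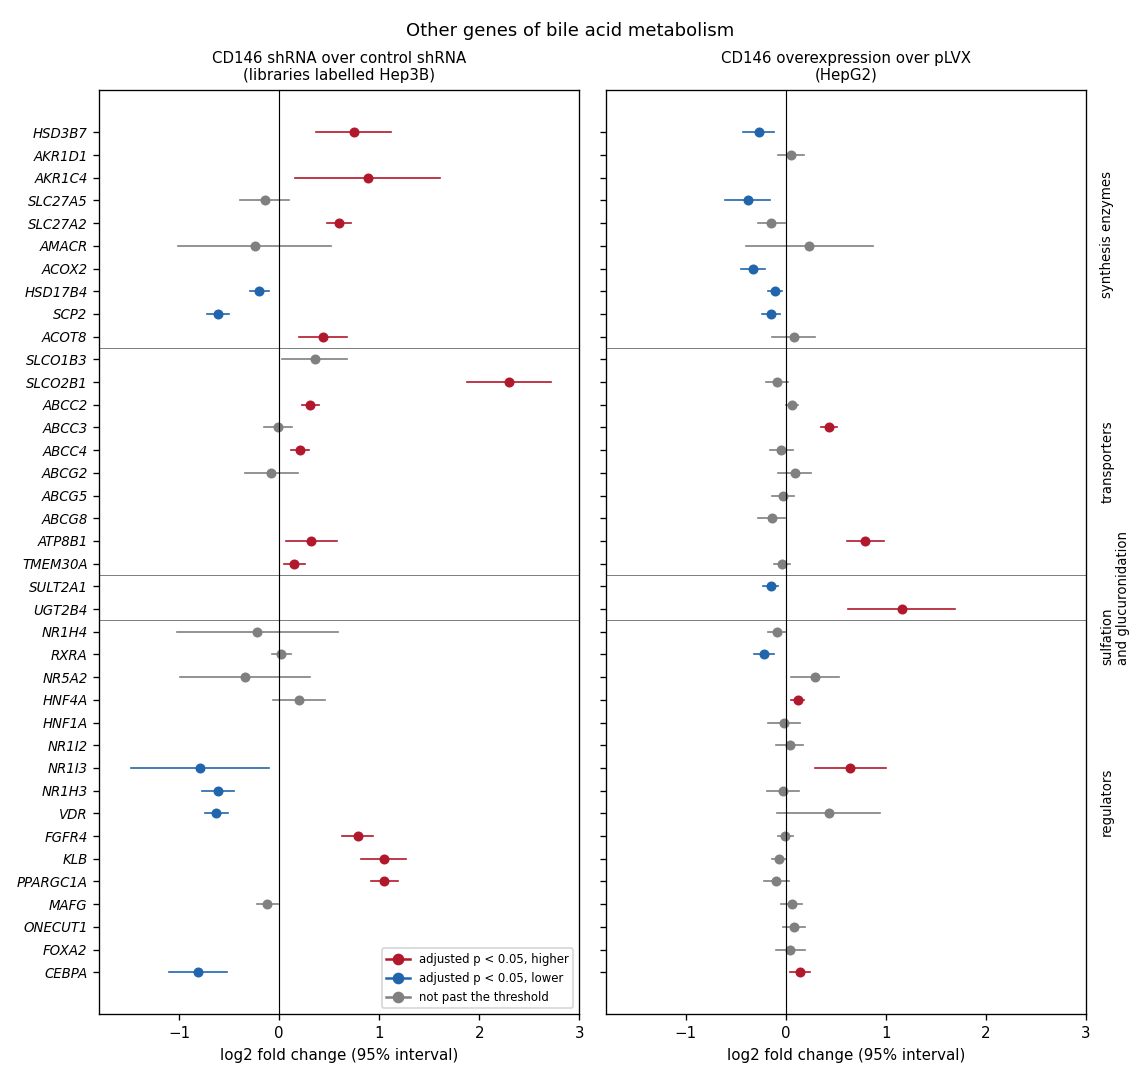
Log2 fold changes (horizontal axes, same range) with 95% intervals of the other bile acid metabolism genes that could be tested in at least 1 comparison, with the CD146 shRNA over control shRNA (left) and CD146 overexpression over pLVX (right). SLCO2B1 at 2.30 on the left and ATP8B1 at 0.80 among the transporters on the right stand farthest from 0 in that list.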

How the data were processed

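RNA-seq libraries of 12 samples, 3 per group, were analysed from the count and FPKM tables that the authors deposited. The deposited counts are raw whole numbers per Ensembl gene ID, with a different total in each library. The deposited FPKM are scaled by gene length and library size and rounded to 2 decimals. Within each gene of at least 500 counts in every library (3807 genes), FPKM followed CPM to within 0.517%. The tools listed, per the submitters' processing notes, are HTSeq 0.6.1, HISAT2 2.2.1 and cutadapt 1.9.1. Genome build, annotation and strand setting are not given in the sources used here, so reads of overlapping genes on opposite strands cannot be told apart. Symbols were found for 61804 of 61806 gene IDs, and positions come from GENCODE version 29 (GRCh38).

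The test was edgeR's quasi-likelihood F test (version 4.0.16, R 4.3.3, TMM scaling, filterByExpr, 2-sided, Benjamini-Hochberg over all genes tested). A gene rose or fell, in the text, where its adjusted p was below 0.05. Each line was fitted alone, and contrasts between lines used all 12 libraries. The standard error was the absolute log2 fold change over the square root of F. The fits were tested on simulated data. Alternatives were RLE scaling, no filter, DESeq2 1.42.0, limma 3.58.1 on log2(FPKM + 1) and log2(FPKM + 0.1), a replicate block, 1 fit of all libraries, and leaving out each library. No replicate pair was alike to within counting error, the chi-square per gene being 1.74 to 3.93.

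Members and lists were chosen with earlier results of these data known. Named are all 10 genes and, per list of other genes and comparison, up to 4 called genes with the smallest adjusted p whose higher group averaged 5 CPM or more. Marker lists covered hepatocytes, cholangiocytes, ileal enterocytes, endothelial cells, fibroblasts and stellate cells, and leukocytes.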

Additional observations from a re-analysis of the deposited data

Results flagged for a closer look

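A difference between the lines in the effect of more CD146 transcript, tested as a contrast over all 12 libraries with edgeR, drew attention to several genes. In this contrast 36.4% of all 18870 genes tested were called (17.2% upward and 19.2% downward). Values are overexpression minus pLVX in HepG2, less control minus CD146 shRNA in libraries labelled Hep3B, on the log2 scale. Among the bile acid genes these were BAAT (-1.69, adjusted p = 0.035) and SLC51A (0.75, adjusted p = 0.00191). The BAAT value rested on 0 to 9 counts in libraries labelled Hep3B and lost its call in 5 of 18 alternatives. MCAM itself differed by 4.12. Among the other synthesis enzymes the values were 0.48 for HSD3B7, -0.53 for SLC27A5, 0.46 for SLC27A2, -0.30 for HSD17B4, -0.76 for SCP2 and 0.52 for ACOT8. Among transporters they were 2.22 for SLCO2B1, 0.37 for ABCC2, 0.42 for ABCC3 and 1.12 for ATP8B1. Among regulators they were -0.19 for RXRA, 0.31 for HNF4A, 0.78 for FGFR4, 0.98 for KLB, 0.96 for PPARGC1A and -0.66 for CEBPA. Only genes named by the rule within a line were flagged. NR1H3 (-0.64) and AKR1C4 (3.58, on 0 to 8 counts in HepG2) were called too but fell outside that rule. Line and method of perturbation cannot be told apart in these values.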

How the results depend on the processing

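Of 410 member results under an alternative, 399 kept their side of the threshold, 9 lost the call, 1 gained it and 1 reversed with a call. A change of sign between fits that were both not called was counted as kept. SLC51B with the CD146 shRNA, at 0.01 in the main fit, reached -0.13 in this way. The BAAT fall in HepG2 was called in all 13 alternatives, with log2 fold changes from -1.54 to -0.65 (adjusted p between 2.36e-16 and 0.00166), the smallest on log2(FPKM + 1), where the added 1 shrinks low genes. The SLC51A rise was called in all 13 (0.33 to 0.45, adjusted p between 0.000298 and 0.0105), and the CYP7A1 rise in 9 of 13 (0.36 to 0.62, adjusted p between 0.00375 and 0.114). The CYP7A1 difference between lines, -0.95 and not called, was 0.32 and called on log2(FPKM + 1). DESeq2 called 1839 genes with overexpression, against 3037 by edgeR. On FPKM, limma called 76% of its genes upward with overexpression, against 48.1% by edgeR, and 36.3% upward between lines, against 47.8%. Between lines the median of all genes was -0.21 on log2(FPKM + 1), and in the difference between lines it was 0.11 with no filter. Leaving out 1 library each gave 1 to 2 called members in the difference between lines and 2 to 3 with overexpression. Equal replicate numbers did not pair the samples (correlation of same-numbered deviations between -0.0425 and 0.107). With the replicate block 9543 genes were called with the shRNA, 2947 with overexpression and 6847 in the difference between lines, and 0, 3 and 2 members. Depth limits every statement on the 8 genes near 0 in libraries labelled Hep3B.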

Other observations

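Genes within 500 kb of the called bile acid genes were read in HepG2 with CD146 overexpression, where 19.8% of all genes tested were called. Around BAAT 6 neighbours could be tested, of which MRPL50 (-0.15) and PLPPR1 (-0.49) fell and ZNF189 (0.13) rose, with a median log2 fold change of -0.21. Around CYP7A1 SDCBP rose by 0.22, 1 of 4 tested. Around SLC51A 0 of 16 were called by edgeR, and 4 had an unadjusted p under 0.05, for which no share over all genes was computed. These small counts were not tested against the share of all genes.

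Markers of other cell types were also present at varying levels. Ileal enterocyte markers summed to 343 to 354 CPM on unscaled totals with CD146 overexpression and 285 to 288 CPM with pLVX, with SLC10A2 and SI at 0 in both. VIL1 alone made up nearly all of these sums, at 341 to 352 CPM with overexpression and 283 to 286 CPM with pLVX. With the CD146 shRNA the sum was 0.441 to 0.872 CPM, against 0.24 to 0.779 CPM with the control shRNA. Leukocyte markers summed to 991 to 1059 CPM with overexpression and 1273 to 1339 CPM with pLVX, with PTPRC and CD3E at 0 with overexpression. LYZ alone made up nearly all of these sums, at 987 to 1055 CPM with overexpression and 1270 to 1335 CPM with pLVX. In libraries labelled Hep3B they stayed between 0.814 and 2.05 CPM with the CD146 shRNA and between 1.08 and 1.45 CPM with the control shRNA. Endothelial markers summed to 4.07 to 4.39 CPM with the CD146 shRNA, 2.28 to 2.64 CPM with the control shRNA, 6.79 to 7.36 CPM with overexpression and 5.63 to 7.99 CPM with pLVX. Fibroblast and stellate markers summed to 93.4 to 116 CPM, 58.4 to 67.1 CPM, 7.47 to 14.8 CPM and 9.54 to 11 CPM in the same 4 groups. COL1A1 alone made up most of the sums in libraries labelled Hep3B. It had 82.5 to 96.9 CPM with the CD146 shRNA and 54.2 to 60.9 CPM with the control shRNA. Cholangiocyte markers with the shRNAs summed to 165 to 170 CPM for CD146 and 195 to 209 CPM for the control. KRT7 and EPCAM made up most of these sums. KRT7 had 98.7 to 103 CPM for CD146 and 130 to 135 CPM for the control, and EPCAM 56.1 to 59.0 and 53.7 to 62.5 CPM.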
